A study of Caenorhabditis elegans with 32 samples.

Results

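The F2 strain comparison within the hypoxia label set 2 libraries of hrde-1 mutants against 2 libraries of wild type (WT) Caenorhabditis elegans, which are 4 of the 32 libraries of the series. The 4 libraries were chosen by their column names, so no measured value entered the choice, and the comparison was read across the 15536 genes that passed a filter on low counts, of 46904 in the table. The hrde-1 group was labelled F2hrde-1_Hypoxia and the WT group F2WT_Hypoxia. Per the labels' protocols, worms were grown at 20 °C with food, L4 larvae were held at 0.1% oxygen for 16 hours, and they then went back to air of about 20% oxygen. Whole worms were lysed and poly(A) RNA was sequenced. The labels do not say whether the F2 worms were themselves exposed or descended from exposed P0 worms, which hrde-1 allele was used, or whether the replicates came from separate cultures. P-values therefore measure only the spread between replicate libraries, which may be technical. The test took that spread from 30 libraries of 15 groups, not from the 4 compared libraries alone. The other groups used here are hrde-1 and WT worms of P0, F1 and F3 under the same label, with 2 libraries each, and the other normoxia groups enter only the shared estimate of the spread or as levels named as such.

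HRDE-1 belongs to the Argonaute proteins and acts in germ cells. It binds small interfering RNAs, moves into the nucleus and, together with the NRDE factors, lowers transcription of matching genes and deposits repressive histone marks there. It is known for silencing that passes from parents to progeny, and worms without it gradually lose fertility at raised temperature. Sperm in the hermaphrodite are made in a short window of late larval life, before the germline turns to oocytes.

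The 4 libraries held 11091297 and 12390881 estimated counts in hrde-1 worms, against 11975804 and 10868488 in WT worms. Replicates correlated at a Pearson's r across genes of 0.995 in hrde-1 worms and 0.997 in WT worms, on log2(CPM + 1), where CPM stands for counts scaled to a common effective library size. Over the 15 groups that set the spread, r ran from 0.966 to 0.997, so some groups were noisier than the compared ones. The 20 most abundant genes of a library took 25.5% of counts in both hrde-1 libraries, against 22.7% and 20.4% in the WT libraries. Markers of the tissues of a whole adult worm were present: all 25 oocyte and eggshell genes, all 23 muscle genes and all 17 intestinal genes reached 1 CPM in each of the 4 libraries. In such whole-worm RNA, fewer cells of a type and less RNA per cell cannot be told apart.

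The transcript of hrde-1 itself, on chromosome III (III:4172337-4176159), was present in both strains and was lower in the mutants. It had 499 and 452 CPM in hrde-1 worms, against 703 and 791 CPM in WT worms, a log2 fold change of -0.65 ± 0.18 (edgeR quasi-likelihood adjusted p = 0.034). As the transcript was present in the mutants, its level gives only a weak check of the strain labels. The call was lost without any single library, at adjusted p between 0.087 and 0.29. hrde-1 was the only called gene among the 17 nuclear RNAi and chromatin factors tested, at a median of -0.17. Its somatic counterpart nrde-3 stood at -0.60 ± 0.23 (adjusted p = 0.13), with 32.2 and 34.0 CPM in hrde-1 worms, against 50.2 and 50.4 CPM in WT worms, and nrde-2, which blocks elongating RNA polymerase, stood at 0.00 ± 0.12. Of the 20 RNA-dependent RNA polymerase and mutator genes, which amplify the small RNAs, edgeR called 0, with 2 at an unadjusted p under 0.05 and 0 by DESeq2. Over all 15536 genes tested, 3183 were at an unadjusted edgeR p under 0.05.

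Many more genes rose than fell in hrde-1 worms. Of the 15536 genes tested, 775 were higher in hrde-1 than in WT worms (4.99%) and 224 were lower (1.44%), at an edgeR quasi-likelihood adjusted p under 0.05, so 6.43% were called in all. The changes upward were also larger: the median log2 fold change was 2.22 among the genes that rose and -1.101 among those that fell, beside a median of 0.07 over all genes tested. Among the genes that rose, 485 did so by at least 2 on the log2 scale, against 62 of those that fell. The libraries of the groups did not overlap for any of the 999 called genes, as was also the case for 61.4% of all genes tested. The count depends on each library: leaving out hrde-1 replicate 1 gave 706 calls, hrde-1 replicate 2 gave 207, WT replicate 1 gave 253 and WT replicate 2 gave 205. The 4 libraries fitted alone, over the 12208 genes that passed the filter there, gave 3259 calls.

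**Figure D1:**
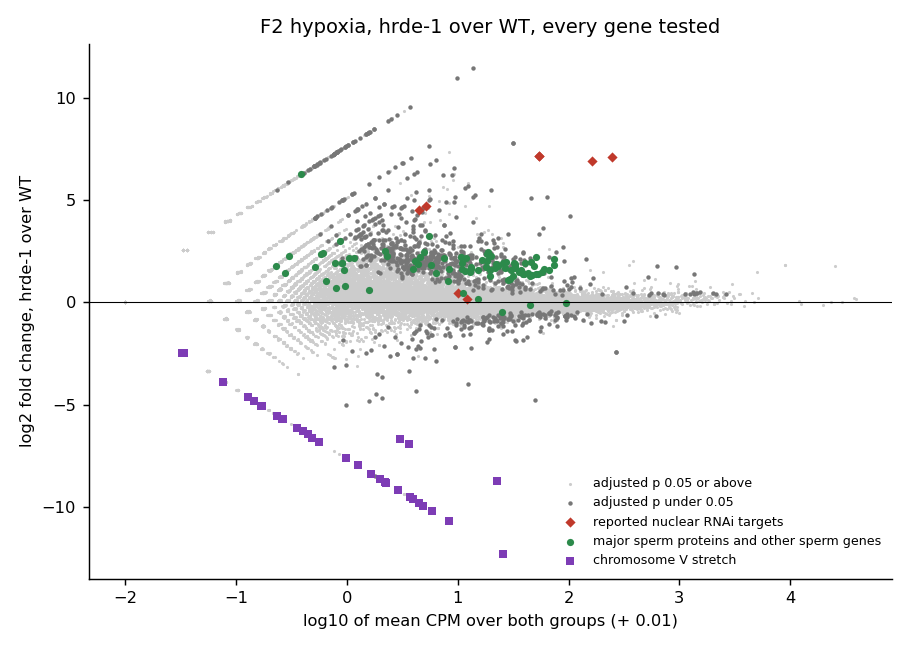
Log2 fold change of hrde-1 over WT in F2 hypoxia libraries (y axis) against the mean level over both groups (x axis, log10 of CPM), with 1 point for each gene tested. Of the 8 reported nuclear RNAi targets tested, 6 lie far above 0, with the identical copies F07B7.2 and W09B7.2 both counted. The sperm genes form a band with medians of 1.60 and 1.85. A stretch of 35 neighbouring genes of chromosome V lies below 0, mostly along the line of genes with no count in hrde-1 worms.

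Most of the genes reported elsewhere as targets of nuclear RNA interference were far higher in hrde-1 worms. Of the 8 tested, 6 were higher in hrde-1 worms (75%, beside 4.99% of all genes), and the median log2 fold change over the 8 was 5.82. Both F07B7.2 and W09B7.2 are among the 6, and their counts are identical. The same measurement thus enters the count and the median more than once. The list was drawn from general knowledge of the field with earlier results of these data known, so its direction is no independent evidence. C38D9.2, a gene with no assigned function on chromosome V (V:17567150-17571742, WBcel235), had 343 and 307 CPM in hrde-1 worms, against 2.84 and 2.56 CPM in WT worms. The hrde-1 libraries stood far above both WT libraries, and the log2 fold change was 6.90 ± 0.29 (SE, adjusted p = 3.4e-12). F15D4.5 on chromosome II had 528 and 456 CPM in hrde-1 worms, against 3.11 and 4.08 CPM in WT worms, a log2 fold change of 7.096 ± 0.343 (adjusted p = 3.6e-11). Its neighbour on the same strand, F15D4.6, rose as well, with 24.8 and 24.2 CPM in hrde-1 worms, against 0.533 and 0.379 CPM in WT worms.

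The near-silence of these genes in WT worms was common to the called members. F07B7.2 and W09B7.2, copies on chromosome V that carry identical counts in all libraries and cannot be told apart, had 107 and 106 CPM in hrde-1 worms, against 0.533 and 0.948 CPM in WT worms. Next to them, the equally inseparable F07B7.1 and W09B7.1 had 60.8 and 66.0 CPM in hrde-1 worms, against 0.356 and 0.190 CPM in WT worms. At a lower level, C03A7.2 had 9.67 and 10.1 CPM in hrde-1 worms, against 0.622 and 0.0948 CPM in WT worms. The gene bath-45, which encodes a protein with BTB and MATH domains, had 7.80 and 9.41 CPM in hrde-1 worms, against 0.533 and 0.190 CPM in WT worms. The members that did not pass were K02E2.6, at 0.48 ± 0.38 (log2, SE, adjusted p = 0.51), and E01G4.5, at 0.14 ± 0.31 (adjusted p = 0.84). Both were already at 8.06 to 11.6 CPM in WT worms. The count of 6 was found under every alternative setting tried, including those without each library.

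Other genes with no or few counts in WT worms rose to levels that agreed between the hrde-1 libraries. The subtelomeric gene cTel55X.1, at the right end of chromosome X, had 19.9 and 19.6 CPM in hrde-1 worms, against 0 and 0 CPM in WT worms. Set against the 3 counts that a group total of 0 allows, that is at least 143-fold higher. The glutathione peroxidase gene gpx-8 had 11.4 and 10.2 CPM in hrde-1 worms, against 0.0889 and 0.379 CPM in WT worms (log2 fold change 5.50 ± 0.56, adjusted p = 1.8e-06). The F-box gene fbxb-14, of a family that recruits proteins for ubiquitination, had 15.3 and 10.4 CPM in hrde-1 worms, against 0.800 and 0.284 CPM in WT worms.

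Several genes chosen after their values were seen, for small standard errors, belong beside these. The ribonuclease H gene rnh-1.3 had 198 and 194 CPM in hrde-1 worms, against 10.7 and 10.6 CPM in WT worms (log2 fold change 4.20 ± 0.28). A mitochondrial import subunit gene, timm-17B.2, had 116 and 131 CPM in hrde-1 worms, against 3.56 and 3.32 CPM in WT worms (5.17 ± 0.31). The eIF4E isoform gene ife-5, for a cap-binding translation factor of the germline, had 52.9 and 50.3 CPM in hrde-1 worms, against 4.71 and 5.50 CPM in WT worms (3.34 ± 0.33). In contrast, ife-3, for another eIF4E isoform of the germline, fell, with 150 and 145 CPM in hrde-1 worms, against 279 and 285 CPM in WT worms (-0.94 ± 0.24, adjusted p = 0.021). The paired suppressors of the EGL-4 kinase pathway, saeg-1 and saeg-2, rose by 2.02 ± 0.18 and 2.71 ± 0.25 on the log2 scale. The linker histone-like gene hil-8 rose by 5.04 ± 0.53, and the phospholipid scramblase gene scrm-4 rose by 3.34 ± 0.27. Of these genes, ife-3 lost its call without any single library, at adjusted p between 0.086 and 0.19, and the others kept theirs.

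**Figure D2:**
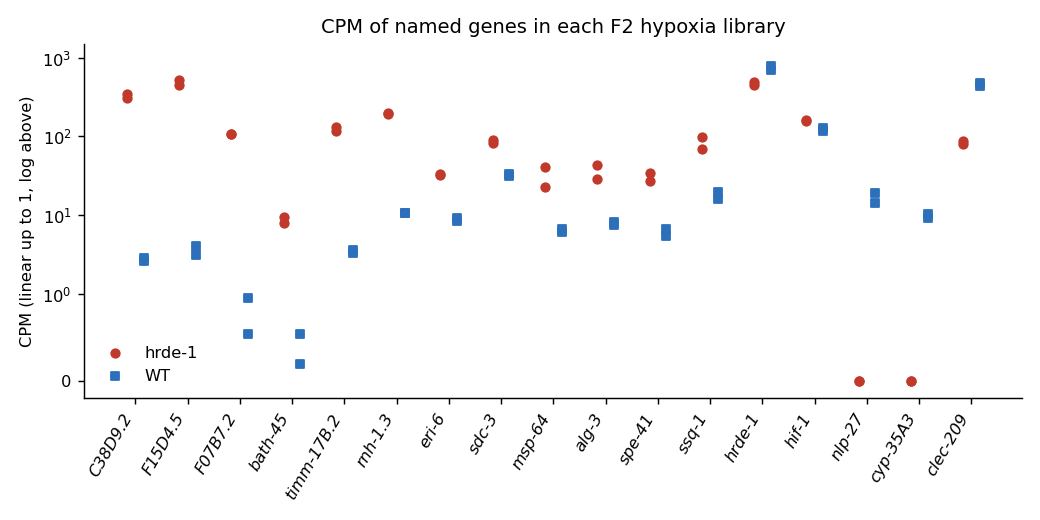
CPM of 17 genes (y axis, linear up to 1 and logarithmic above) in each F2 hypoxia library, with hrde-1 libraries as circles on the left and WT libraries as squares on the right of each gene. C38D9.2 stands at 343 and 307 CPM in hrde-1 worms and at 2.84 and 2.56 CPM in WT worms, while nlp-27 and cyp-35A3 stand at 0 in hrde-1 worms, and for hif-1 the groups lie close together.

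Argonaute genes of sperm production rose while most Argonautes showed no call. Of 18 tested, 3 rose, a share of members to be read beside the 4.99% of all genes. The paralogous genes alg-3 and alg-4 encode Argonautes needed for sperm gene expression at raised temperature. Of these, alg-3 had 28.7 and 43.4 CPM in hrde-1 worms, against 8.18 and 7.49 CPM in WT worms (log2 fold change 2.202 ± 0.431, adjusted p = 0.0040). For alg-4 the values were 29.3 and 44.3 CPM in hrde-1 worms, against 7.199 and 4.27 CPM in WT worms (2.68 ± 0.52, adjusted p = 0.0037). The third, ppw-2, a germline Argonaute of the secondary small RNA class, had 152 and 136 CPM in hrde-1 worms, against 74.1 and 69.9 CPM in WT worms (1.001 ± 0.157, adjusted p = 0.00042). The piRNA Argonaute gene prg-1 stood at 0.10 ± 0.17 and csr-1, whose product licenses germline genes, at 0.03 ± 0.15. Among the 13 genes of double-stranded RNA uptake and primary RNA interference, 1 rose, or 7.69%. This was eri-6, part of a helicase locus of the endogenous small RNA pathway. It had 32.6 and 33.7 CPM in hrde-1 worms, against 9.07 and 8.34 CPM in WT worms (1.93 ± 0.19, adjusted p = 1.5e-06). Its annotated span holds C41D11.6 on the other strand, which had 94.3 and 82.5 CPM in hrde-1 worms, against 2.22 and 2.94 CPM in WT worms, and without strand-specific counts the reads of the 2 genes cannot be told apart. Neighbouring eri-7 stood at -0.35 ± 0.16 (adjusted p = 0.23). Without WT replicate 2 the adjusted p was 0.091 for alg-3 and 0.12 for alg-4, without hrde-1 replicate 2 it was 0.071 and 0.055, and without WT replicate 1 it was 0.056 for alg-3, while ppw-2 and eri-6 kept their calls.

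Of the 44 gene lists read, those of sperm held the most genes that rose. Over all 15536 genes tested, 4.99% rose and 8569 had positive fold changes. Of 30 major sperm protein genes tested, 24 rose (80%), and all 30 fold changes were positive, with a median log2 fold change of 1.60. These genes encode the cytoskeletal protein that drives sperm crawling and that signals to oocytes, and their copies are nearly identical, so that counts of single copies are uncertain. Of 56 other sperm genes tested, 28 rose (50%), 3 were negative without a call, and the median was 1.85. The called members ran from 1.27 to 2.305 among major sperm proteins and from 1.04 to 3.23 among the other sperm genes. Summed over the major sperm proteins, the level was 1186 and 1816 CPM in hrde-1 worms, against 554 and 460 CPM in WT worms. The other sperm genes summed to 1027 and 1425 CPM in hrde-1 worms, against 515 and 444 CPM in WT worms.

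Members from different steps of sperm development were among the genes that rose. For msp-64 the levels were 22.8 and 40.3 CPM in hrde-1 worms, against 6.13 and 6.64 CPM in WT worms (log2 fold change 2.305 ± 0.469, adjusted p = 0.0056). The sperm calcium channel gene spe-41, needed for fertilization, had 26.8 and 34.2 CPM in hrde-1 worms, against 5.33 and 6.54 CPM in WT worms (2.36 ± 0.43, adjusted p = 0.0019). The myosin gene spe-15, whose product sorts components into budding spermatids, had 33.3 and 53.3 CPM in hrde-1 worms, against 11.02 and 10.995 CPM in WT worms (1.98 ± 0.37, adjusted p = 0.0024). The presenilin-like gene spe-4 rose by 2.48 ± 0.54 and the sperm phosphatase gene gsp-3 by 2.45 ± 0.57 on the log2 scale. The fate regulators fog-1 and fog-3, which commit germ cells to sperm and act before these genes, were not among the calls. All 5 of these called genes lost the call without at least 1 library other than hrde-1 replicate 1, at highest adjusted p of 0.11 for msp-64, 0.056 for spe-41, 0.065 for spe-15, 0.12 for spe-4 and 0.20 for gsp-3.

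**Figure D3:**
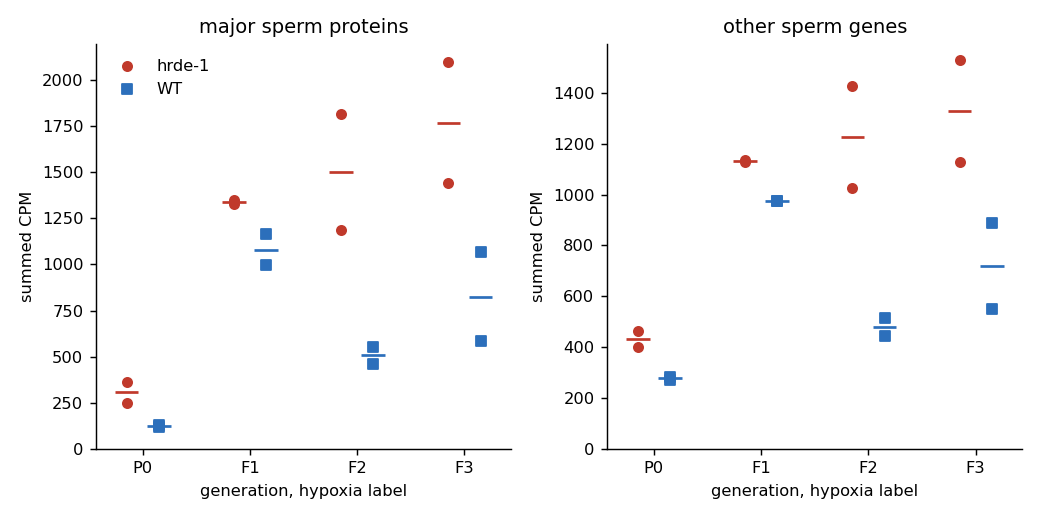
Summed CPM of major sperm protein genes (left) and of other sperm genes (right) in each hypoxia library by generation, with hrde-1 as circles and WT as squares, and bars at the group means. In F2 the hrde-1 libraries stand at 1186 and 1816 CPM and the WT libraries at 554 and 460 CPM for the major sperm proteins, while in F1 the libraries stand at 1352 and 1328 CPM in hrde-1 worms and 994 and 1166 CPM in WT worms.

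The sperm calls depended on every library but hrde-1 replicate 1. The number of major sperm protein genes called was 22 without hrde-1 replicate 1 but 0 without hrde-1 replicate 2, 1 without WT replicate 1 and 0 without WT replicate 2, while the median stayed between 1.23 and 1.87. For the other sperm genes the numbers were 26, 3, 7 and 2 in the same order, with medians between 1.54 and 2.13. hrde-1 replicate 2 had the higher value of the hrde-1 libraries for 29 of the 30 major sperm proteins and for 49 of the 56 other sperm genes, as it had for 604 of all 775 genes that rose. In the F2 hrde-1 normoxia libraries, which take no part in this comparison, the major sperm proteins summed to 1598 and 879.7 CPM. The order of the strains varied under that label. In P0 normoxia the sums were 213 and 316 CPM in hrde-1 worms, against 21.6 and 37.7 CPM in WT worms. For F1 normoxia they were 278 and 331 CPM against 929 and 1062 CPM, and for F3 normoxia 595 and 1467 CPM against 1504 and 1252 CPM.

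Of the 775 genes that rose, 52 had no count in either WT library and 50 had 1 to 3 counts. Among the 52, hrde-1 replicate 2 was more than 2 times above replicate 1 in 37 genes and replicate 1 more than 2 times above replicate 2 in 2 genes, while over all 775 genes that rose replicate 2 was the higher in 604. Among the genes with no count in WT worms were C-type lectins, whose carbohydrate-binding domains occur in immune and extracellular proteins, and secreted proteases. Of 141 C-type lectin genes tested, 15 rose and 3 fell, at a median of 0.14, and the number that rose was 18 without hrde-1 replicate 1 and 1 without each of the other libraries. As shares of the lectin genes tested, 10.6% rose and 2.13% fell, beside 4.99% and 1.44% of all genes. For clec-219 the levels were 1.14 and 4.98 CPM in hrde-1 worms, against 0 and 0 CPM in WT worms, at least 23.1-fold higher (adjusted p = 0.0043). For clec-137 they were 0.832 and 4.33 CPM in hrde-1 worms, against 0 and 0 CPM in WT worms, at least 19.5-fold higher (adjusted p = 0.034). The astacin protease gene nas-24 had 1.04 and 5.17 CPM in hrde-1 worms, against 0 and 0 CPM in WT worms, at least 23.4-fold higher (adjusted p = 0.018). The gene scl-15, of the secreted SCP/TAPS family, had 1.04 and 5.90 CPM in hrde-1 worms, against 0 and 0 CPM in WT worms, at least 26.3-fold higher (adjusted p = 0.024). These 4 genes kept the call without hrde-1 replicate 1 and lost it without hrde-1 replicate 2, WT replicate 1 or WT replicate 2, at adjusted p of up to 0.067 for clec-219, 0.29 for clec-137, 0.19 for nas-24 and 0.23 for scl-15.

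The most extreme of these was F59B2.12 on chromosome III, with 11.2 and 44.1 CPM in hrde-1 worms, against 0 and 0 CPM in WT worms. That is at least 208-fold higher (adjusted p = 0.00032). The insulin-like gene ins-31 had 2.08 and 8.76 CPM in hrde-1 worms, against 0 and 0.0948 CPM in WT worms (adjusted p = 0.0084). It was the only one called of 20 insulin-like genes tested, or 5%, beside 4.99% of all genes that rose. Genes known from males, which also make sperm, were looked at after these values were seen. They were mab-3, pkd-2, lov-1, cwp-1 and plg-1, of which cwp-1 was tested without a call. The male sex determination factor gene mab-3 rose, with 1.98 and 3.50 CPM in hrde-1 worms, against 0.356 and 0.474 CPM in WT worms (log2 fold change 2.70 ± 0.74, adjusted p = 0.033). The male neuron channel gene pkd-2 had 0.624 and 1.01 CPM in hrde-1 worms, against 0 and 0.190 CPM in WT worms, without a call, and lov-1 had 0.104 and 1.29 CPM in hrde-1 worms, against 0.533 and 0.284 CPM in WT worms. The gene plg-1, named for the mating plug, had 5.82 and 5.44 CPM in hrde-1 worms, against 0.978 and 1.61 CPM in WT worms. Its log2 fold change was 2.12 in F2, and it was also positive under the hypoxia label in P0, F1 and F3, at 1.40, 1.91 and 1.65. Whether the plg-1 reads came from males was not tested. F59B2.12 kept its call without each library, whereas the highest adjusted p was 0.11 for ins-31 and 0.28 for mab-3, both without hrde-1 replicate 2, and 0.057 for plg-1, without WT replicate 1. The part of males in the sperm result was not tested.

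Neighbouring genes on the left arm of chromosome V made up most of the genes that fell to no count in hrde-1 worms. From btb-21 to D1065.3 (V:3850127-4062184, WBcel235), 35 tested genes in a row had nearly no counts in hrde-1 worms, a stretch found after its values were seen. The rule took at least 10 tested neighbours, each with at most 3 counts in the hrde-1 group and a negative fold change. Together the 35 genes had 4 counts in the hrde-1 libraries, against 4601 counts in the WT libraries, or 0.104 and 0.277 CPM in hrde-1 worms, against 227 and 194 CPM in WT worms. In 32 of the 35 genes the hrde-1 libraries had no count at all, and 23 were called lower. As the rule picked genes for low counts in these libraries, that number cannot be set against the 1.44% of all genes. Without single libraries 18 or 19 of the 23 stayed called, and btb-21 at the edge lost its call without each. The tested genes on either side, H10D18.1 and nhr-181, had counts in both strains. The same genes summed to between 1 and 9 counts in each of the hrde-1 libraries of all generations and both labels, against between 2043 and 5311 in each WT library with counts of its own.

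Within the stretch lie antimicrobial peptide genes and cytochrome P450 genes. The neuropeptide-like genes nlp-27, nlp-28, nlp-29, nlp-31 and nlp-34, most of them known as epidermal antimicrobial peptides, were the 5 that fell of 65 tested. For nlp-27 the levels were 0 and 0 CPM in hrde-1 worms, against 18.9 and 14.1 CPM in WT worms, at least 113-fold lower (adjusted p = 2.7e-07). For nlp-29, a common reporter of the epidermal response to wounding and fungal infection, they were 0 and 0 CPM in hrde-1 worms, against 8.27 and 7.39 CPM in WT worms, at least 53.5-fold lower (adjusted p = 7.7e-06). All 6 cytochrome P450 genes that fell, of 59 tested, also lie there. Among them cyp-35A3 had 0 and 0 CPM in hrde-1 worms, against 9.24 and 10.2 CPM in WT worms (at least 66.3-fold lower, adjusted p = 9.1e-06), while its relative outside the stretch, cyp-35A2, a xenobiotic and fat metabolism gene, rose to 59.4 and 62.4 CPM in hrde-1 worms, against 32.4 and 31.6 CPM in WT worms (log2 fold change 0.93 ± 0.22, adjusted p = 0.015). The infection response gene irg-2 had 0 and 0 CPM in hrde-1 worms, against 11.6 and 11.8 CPM in WT worms (at least 79.8-fold lower, adjusted p = 0.0010). The most abundant member, C17E7.4, had 0 and 0 CPM in hrde-1 worms, against 53.5 and 48.5 CPM in WT worms, at least 348-fold lower (adjusted p = 1.4e-09). Outside the stretch, no neuropeptide-like gene of 59 and no cytochrome P450 gene of 48 fell, by the same edgeR test. None of these was lower at an unadjusted p under 0.05 either (0 and 0), and DESeq2 called 0 and 0. The genes given here with values from the stretch kept their calls without each library, and cyp-35A2 lost its call without WT replicate 1, WT replicate 2 or hrde-1 replicate 2 (adjusted p up to 0.19).

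**Figure D4:**
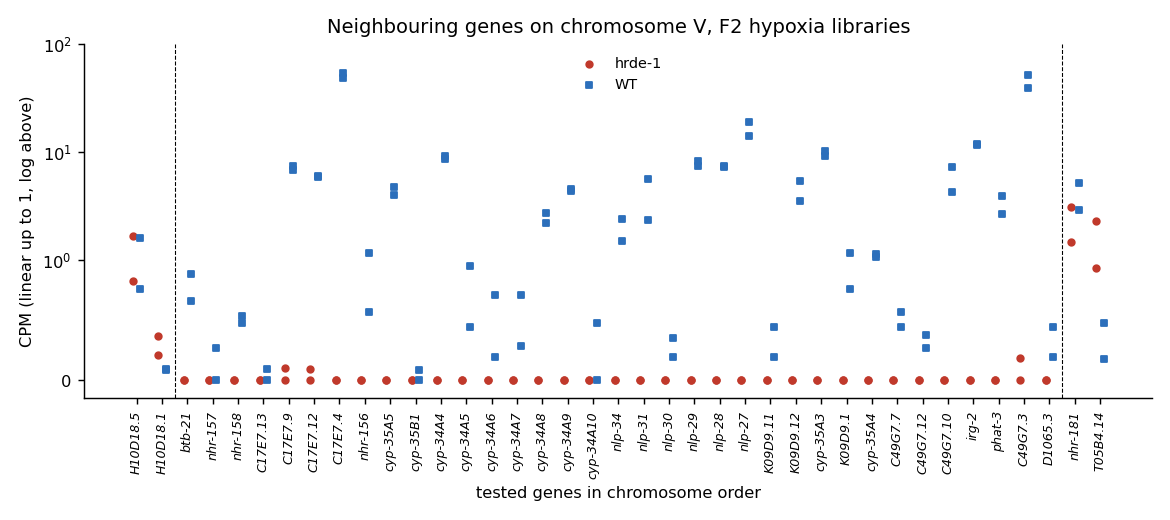
CPM of neighbouring tested genes on chromosome V (y axis, linear up to 1 and logarithmic above), in chromosome order, with hrde-1 libraries as circles and WT libraries as squares. Between the dashed lines lie the 35 genes from btb-21 to D1065.3, at 0 in hrde-1 worms for 32 of them, and outside lie 2 flanking genes on each side, which have counts in both strains.

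A further 201 genes fell outside the stretch. Of the 26 genes that fell and had no count in hrde-1 worms, 20 lie in the stretch and 6 elsewhere. Among these 6, F56A4.3 on chromosome V had 0 and 0 CPM in hrde-1 worms, against 10.8 and 8.91 CPM in WT worms, at least 67.2-fold lower (adjusted p = 7.4e-05). The pseudogene CE7X_3.1 at the left end of chromosome X had 0 and 0 CPM in hrde-1 worms, against 2.84 and 4.36 CPM in WT worms (adjusted p = 0.00044). Both kept their calls without each library. Y73B3A.1 on chromosome X had 4.58 and 2.40 CPM in hrde-1 worms, against 102 and 90.5 CPM in WT worms (log2 fold change -4.80 ± 0.33, adjusted p = 4.0e-09). Nearby Y73B3A.4 had 1.46 and 1.48 CPM in hrde-1 worms, against 22.5 and 24.4 CPM in WT worms (-3.99 ± 0.28). These 4 genes were chosen after their values were seen, as was the nspc family of small peptide genes on chromosome X, of which 7 of 18 fell, with 3 called without hrde-1 replicate 1, 1 without hrde-1 replicate 2, 1 without WT replicate 1 and 4 without WT replicate 2. Of all genes tested 1.44% fell, and of those on chromosome X 3.13%. In the nspc family nspc-20 had 1.35 and 1.48 CPM in hrde-1 worms, against 7.38 and 6.45 CPM in WT worms (-2.28 ± 0.38). The lectin clec-209, which shares all its counts with F56A4.2 and cannot be told apart from it, had 86.7 and 80.9 CPM in hrde-1 worms, against 472 and 436 CPM in WT worms (-2.44 ± 0.37, adjusted p = 0.00027).

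Single genes of the uterus, intestine, immunity and insulin signalling also fell. Of 5 uterine lumen genes 2 fell (40%, beside 1.44% of all genes). These were ule-4 and ule-5, which fell by 1.06 ± 0.20 and 0.73 ± 0.18 on the log2 scale. For ule-5 the levels were 66.8 and 79.8 CPM in hrde-1 worms, against 114 and 129 CPM in WT worms. The saposin-like gene spp-5, an intestinal antimicrobial effector, had 123 and 146 CPM in hrde-1 worms, against 265 and 244 CPM in WT worms (-0.92 ± 0.23, adjusted p = 0.023). It was the only call of 17 intestinal genes (5.88%, beside 1.44% of all genes). The immune gene irg-4 fell by 2.88 ± 0.86 (adjusted p = 0.049), which with nlp-29 makes the 2 calls of 29 innate immunity genes. These are 6.90% of the list, beside 1.44% of all genes, and nlp-29 lies in the chromosome V stretch. The kinase gene pdk-1, which acts below the insulin receptor, had 15.3 and 17.1 CPM in hrde-1 worms, against 27.4 and 27.8 CPM in WT worms (-0.77 ± 0.18, adjusted p = 0.014). Chosen after the fact, the small RNA cofactor gene gtsf-1, the nonsense-mediated decay nuclease gene smg-6 and the histone chaperone gene spt-16 fell by 0.74 ± 0.18, 0.64 ± 0.13 and 0.61 ± 0.12. Each of these but nlp-29 lost its call without at least 1 library. Without WT replicate 1, ule-4 had an adjusted p of 0.058. Without any single library the calls of ule-5, spp-5, irg-4, pdk-1 and gtsf-1 were lost, at adjusted p of up to 0.21, 0.15, 0.35, 0.12 and 0.17. Without hrde-1 replicate 2 the adjusted p was 0.14 for smg-6 and 0.10 for spt-16, without WT replicate 1 it was 0.065 for smg-6, and without WT replicate 2 it was 0.14 for spt-16.

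Oocyte and other germline genes lay slightly below 0 without calls. The counts at an unadjusted p under 0.05 given here are to be read beside 3183 of all 15536 genes. Of 25 oocyte and eggshell genes, 23 had negative fold changes with a median of -0.27. For these, edgeR called 0, 1 was at an unadjusted p under 0.05, and DESeq2 called 0. The eggshell proteoglycan gene cpg-3 had 212 and 202 CPM in hrde-1 worms, against 299 and 284 CPM in WT worms (-0.49 ± 0.22, adjusted p = 0.21). For 25 meiosis genes the median was -0.23 with 0 calls by edgeR, 5 at an unadjusted p under 0.05 and 0 by DESeq2. For 15 P granule genes it was -0.18 with 0 calls by edgeR, 3 at an unadjusted p under 0.05 and 2 lower by DESeq2. The P granule gene meg-1 stood at -0.91 ± 0.31 (adjusted p = 0.084). For 24 cell cycle and DNA replication genes the median was -0.21, with 0 calls by edgeR, 2 at an unadjusted p under 0.05 and 0 by DESeq2. The 6 vitellogenins, yolk proteins made in the intestine, stood at a median of 0.03, with 0 calls by edgeR, 0 at an unadjusted p under 0.05 and 0 by DESeq2, and vit-2 had 42183 and 39033 CPM in hrde-1 worms, against 36327 and 33482 CPM in WT worms.

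Genes of protein synthesis lay slightly above 0, some with calls. Of 81 cytosolic ribosomal protein genes, 14 rose (17.3%, beside 4.99% of all genes) and 79 had positive fold changes, with a median log2 fold change of 0.29. For rps-5 the levels were 1777 and 1820 CPM in hrde-1 worms, against 1332 and 1219.9 CPM in WT worms (0.50 ± 0.11, adjusted p = 0.0080). Leaving out hrde-1 replicate 1 left 3 calls in the list, and leaving out hrde-1 replicate 2, WT replicate 1 or WT replicate 2 left 0, 1 and 0. Of 35 nuclear-encoded respiratory chain genes 3 rose, or 8.57%, beside 4.99% of all genes, with mev-1, the succinate dehydrogenase cytochrome b subunit, at 99.7 and 99.98 CPM in hrde-1 worms, against 75.7 and 77.3 CPM in WT worms (0.38 ± 0.11, adjusted p = 0.044). A single mitochondrially encoded gene of 14, nduo-6, rose (1.39 ± 0.41, adjusted p = 0.049), or 7.14% of the list. Of the respiratory chain genes 1 was called without hrde-1 replicate 1 and 1 without WT replicate 1, but 0 without hrde-1 replicate 2 and 0 without WT replicate 2. Without WT replicate 2 the adjusted p was 0.19 for rps-5, 0.29 for mev-1 and 0.30 for nduo-6. Without hrde-1 replicate 2 it was 0.092 for rps-5, and mev-1 and nduo-6 lost their calls without each library.

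Cuticle collagens mostly had positive fold changes, and the number called depended on the test and on the libraries fitted. Of 144 tested, 127 were positive and the median log2 fold change was 1.57. In the other generations under the hypoxia label the median was -0.85 in P0, 0.15 in F1 and 1.90 in F3. By edgeR 9 rose, or 6.25%, beside 4.99% of all genes, and 67 were at an unadjusted p under 0.05, beside 3183 of all 15536 genes. DESeq2 called 40 higher, or 27.8%, beside 6.58% of all genes. The 4 libraries fitted alone called 99 higher of the 119 that passed the filter there, or 83.2%, beside 16.39% of all genes. By edgeR leaving out hrde-1 replicate 1 left 3 calls, hrde-1 replicate 2 left 0, WT replicate 1 left 0 and WT replicate 2 left 0. For col-42 the levels were 722 and 759 CPM in hrde-1 worms, against 343 and 281 CPM in WT worms (1.25 ± 0.29, adjusted p = 0.014). Among other body tissues, myo-3, the body-wall muscle myosin heavy chain, was the only call of 23 muscle genes (4.35%, beside 4.99% of all genes). It had 416 and 415 CPM in hrde-1 worms, against 241 and 253 CPM in WT worms (0.75 ± 0.20, adjusted p = 0.032). Of 21 synaptic and vesicle genes only the vesicular monoamine transporter gene cat-1 rose (4.76%, beside 4.99% of all genes). It had 1.66 and 2.31 CPM in hrde-1 worms, against 0.444 and 0.379 CPM in WT worms (2.24 ± 0.63, adjusted p = 0.038). None of col-42, myo-3 and cat-1 kept its call without WT replicate 2, at adjusted p of 0.22, 0.20 and 0.28, nor without WT replicate 1 or hrde-1 replicate 2.

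The gene of the hypoxia-inducible factor, hif-1, had 156 and 164 CPM in hrde-1 worms, against 129 and 117 CPM in WT worms, a log2 fold change of 0.38 ± 0.16 (adjusted p = 0.17). Of 17 genes of its pathway 6 were at an unadjusted p under 0.05, beside 3183 of all 15536 genes. By adjusted p 1 of the 17 rose, or 5.88%, beside 4.99% of all genes. It was smf-3, a transporter of manganese and iron, with 9.26 and 7.66 CPM in hrde-1 worms, against 3.29 and 2.56 CPM in WT worms (1.53 ± 0.41, adjusted p = 0.029). For 21 heat shock genes edgeR called 0, with 2 at an unadjusted p under 0.05 and 0 by DESeq2, and for 10 genes of the mitochondrial unfolded protein response it called 0, with 1 at an unadjusted p under 0.05 and 0 by DESeq2. In the endoplasmic reticulum unfolded protein response 1 of 14 rose, or 7.14%, beside 4.99% of all genes. It was the transcription factor gene xbp-1, at 607 and 607 CPM in hrde-1 worms, against 466 and 465 CPM in WT worms (0.38 ± 0.11, adjusted p = 0.037). For 24 glycolysis genes edgeR called 0, with 2 at an unadjusted p under 0.05 and 0 by DESeq2. For 30 lipid metabolism genes it called 0, with 4 at an unadjusted p under 0.05 and 1 lower by DESeq2. The calls of smf-3 and xbp-1 were lost without any single library, at adjusted p of up to 0.28 and 0.27.

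The share of called genes differed between chromosomes, which is given as a description without a test. Chromosome IV had the largest share of genes that rose, 215 of 2676 tested (8.03%), and chromosome X the smallest, 21 of 2111 (0.995%). For genes that fell the order of these chromosomes was opposite: 66 of 2111 on X (3.13%) and 27 of 2676 on IV (1.01%), while chromosome V had 69 of 3050 (2.26%), which includes the 23 of the stretch. The share that rose was 11.4% of pseudogenes (63 of 552) and 4.72% of protein-coding genes (701 of 14848). A total of 279 of the 775 genes that rose have a gene-class name, against 115 of the 224 that fell. The share of such names among all genes tested was not counted, so neither number shows an excess or a lack. Besides the stretch, the single run of at least 5 called neighbours was on the right end of chromosome V (V:20302135-20324032), where ZC15.4, ZC15.3, ZC15.1, ZC15.10 and Y113G7C.1 rose. In that run ZC15.3 had 48.4 and 30.1 CPM in hrde-1 worms, against 0.889 and 0.853 CPM in WT worms (log2 fold change 5.48 ± 0.64, adjusted p = 1.1e-05). Without each library ZC15.3 and ZC15.4 kept their calls, and the highest adjusted p was 0.062 for ZC15.1, 0.15 for ZC15.10 and 0.22 for Y113G7C.1.

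The strain comparisons of the other generations under the hypoxia label share no library with that of F2. In P0, 2.14% of genes were called in hrde-1 worms, 233 higher (1.5%) and 99 lower (0.637%). F1 had calls for 1.98%, with 177 higher (1.14%) and 131 lower (0.843%), and F3 for 10.8%, with 806 higher (5.19%) and 874 lower (5.63%). Of the genes that rose in F2, 196 were also called higher in P0, which is 25.3% of the F2 list and 84.1% of the P0 list. In F1 the shared number was 153, or 19.7% of the F2 list and 86.4% of the F1 list, and in F3 it was 355, or 45.8% of the F2 list and 44.0% of the F3 list. Of the genes that fell in F2, 76, 89 and 166 were also called lower in P0, F1 and F3, which is 33.9%, 39.7% and 74.1% of the F2 list and 76.8%, 67.9% and 18.99% of the P0, F1 and F3 lists. In all 4 generations, 121 genes were called higher and 60 lower. Called higher in F2 and in none of the other 3 were 393 genes, or 50.7%, which does not show that these differ between generations.

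The sign of the F2 difference was kept in most other generations, with F1 lowest for the genes that rose. The share of the 775 genes with a positive fold change was 96.0% in P0, 76.8% in F1 and 99.4% in F3, where 53.7%, 50.3% and 53.8% of all genes tested were positive. For the reported RNAi targets, 6 of the 8 were called higher in P0, F1 and F3 as well, at medians of 5.54, 5.88 and 5.23. These numbers again count the identical copies F07B7.2 and W09B7.2 as separate members. The sperm lists varied more by generation. The median log2 fold change of the major sperm proteins over P0, F1, F2 and F3 was 1.31, 0.36, 1.60 and 1.13, and that of the other sperm genes 1.03, 0.01, 1.85 and 1.04. WT worms differed between generations too, with major sperm protein sums of 120 and 129 CPM for P0, 994 and 1166 CPM for F1, 554 and 460 CPM for F2 and 583 and 1068 CPM for F3. Tested directly, the F2 strain difference minus that in F1 had a median of 1.27 over the 30 major sperm proteins and 1.66 over the 56 other sperm genes. No sperm gene passed in that test after adjustment, by edgeR or DESeq2. At an unadjusted edgeR p under 0.05 were 18 and 33 of them, beside 1185 of all 15536 genes.

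A difference between generations was called for sdc-3, a gene of X chromosome dosage compensation and sex determination. It had 83.5 and 90.1 CPM in F2 hrde-1 worms, against 31.2 and 33.3 CPM in F2 WT worms (log2 fold change 1.43 ± 0.17, adjusted p = 1.2e-05). In P0 the levels were 33.3 and 29.2 CPM in hrde-1 worms, against 36.2 and 39.5 CPM in WT worms. The F2 difference exceeded that of P0 by 1.71 ± 0.24 on the log2 scale (adjusted p = 0.0077), the only gene called in that test (0.00644% of those tested). In F1 and F3 hrde-1 worms sdc-3 had 72.5, 86.9, 75.6 and 70.5 CPM, against 24.05, 28.4, 36.2 and 31.2 CPM in WT worms of F1 and F3. In the P0 normoxia libraries sdc-3 had 32.8 and 35.7 CPM in hrde-1 worms, against 31.4 and 25.11 CPM in WT worms, so that the strains stood in the opposite order to that of P0 under the hypoxia label. In the F2 normoxia libraries it had 80.4 and 80.5 CPM in hrde-1 worms. The adjusted p of the difference was 0.14 without WT replicate 1, 0.086 without WT replicate 2, 0.036 without hrde-1 replicate 1 and 0.086 without hrde-1 replicate 2, at sizes between 1.65 and 1.76.

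**Figure D5:**
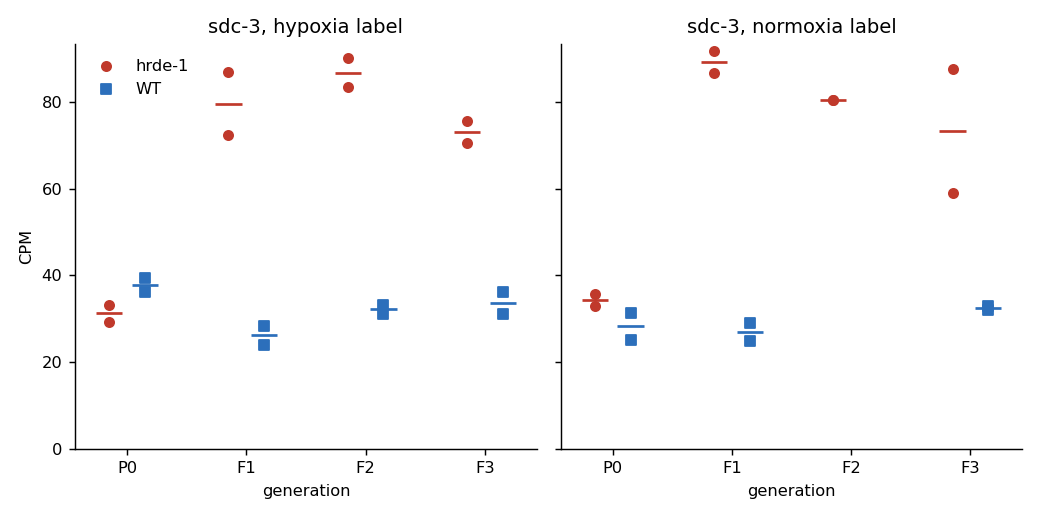
CPM of sdc-3 (y axis) in each library by generation under the hypoxia label (left) and the normoxia label (right), with hrde-1 as circles, WT as squares and bars at the group means. Under hypoxia the P0 hrde-1 libraries stand at 33.3 and 29.2 CPM and the F2 hrde-1 libraries at 83.5 and 90.1 CPM, and the F2 WT normoxia group is not drawn because its columns are means that include other libraries.

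The test of F2 against F1 called 1 gene (0.00644%), F56D6.22 on chromosome IV. It had 1.14 and 1.38 CPM in F2 hrde-1 worms, against 0 and 0 CPM in F2 WT worms, and 0.407 and 0.565 CPM in F1 hrde-1 worms, against 1.202 and 1.72 CPM in F1 WT worms. Both strains were at a low level. The adjusted p of the difference was 0.35 without WT replicate 1, 0.67 without WT replicate 2, 0.11 without hrde-1 replicate 1 and 0.21 without hrde-1 replicate 2. The test of F2 against F3 called 0 genes by edgeR, with 497 at an unadjusted p under 0.05 and 1 by DESeq2.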

How the data were processed

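Estimated counts per gene were deposited by the authors without normalization, as the values show: over 30 of 32 columns, the lowest share of exactly whole numbers among values above 0 was 94.2%. Per the submitters' processing notes, the tools were cutadapt 2.5, Bowtie2, featureCounts, RSEM and edgeR. What each did, and on which genome build, is not given in the sources used here. As raw counts had been foreseen, values were rounded to whole numbers before testing. Of the IDs, 46817 (99.8%) matched the WBcel235 annotation of Ensembl, which gave positions. Overlapping genes cannot be told apart, since strand use is not stated.

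Genes passed edgeR's filterByExpr, and CPM used TMM effective library sizes. The tests were edgeR 4.0.16 quasi-likelihood tests (R 4.3.3), with p-values adjusted by the Benjamini-Hochberg method over all genes tested, from 1 fit of 30 libraries with a mean for each of 15 groups (15 residual degrees of freedom). The F2 WT normoxia columns stayed out because each is a mean of 3 values that takes in the like-numbered F1 and F3 columns. Standard errors divide the absolute log2 fold change by the square root of the F statistic. On simulated data, 76.1% of changes of 1 and 100% of changes of 2 and 4 (log2) were recovered over 14475 genes, with 10 false calls. The changes were set only in genes with many counts. The simulated spread between replicates was smaller than that of the real libraries, whose common coefficient of variation was 0.25. These shares therefore do not give the sensitivity of the real test, least of all for genes of low count. Bounds of fold changes set a group total of 0 to 3 counts and cover counting error only.

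Named genes were hrde-1 and hif-1. Among called genes without overlap whose higher group averaged 1 CPM or more, the 12 largest changes per direction with gene-class names and the 4 largest of any name were added. So were up to 4 called members per direction of each of 44 gene lists, or 2 as values, and runs of at least 5 called neighbours. Not all are printed. Members and lists were chosen with earlier results of these data known. The alternatives were DESeq2 1.42.0 and its size factors, other filters, other sets of libraries, a replicate block and leaving out each library.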

Additional observations from a re-analysis of the deposited data

Results flagged for a closer look

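For sdc-3, the strain difference in F2 under the hypoxia label exceeded that in P0 by 1.71 ± 0.24 (log2, SE, adjusted p = 0.0077 by edgeR), which was a tested difference between generations. It was higher in both F2 hrde-1 libraries than in both F2 WT libraries, and in P0 both hrde-1 libraries were below both WT libraries. The adjusted p ranged from 4.4e-05 to 0.14 over the alternatives.

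For F56D6.22, the strain difference in F2 exceeded that in F1 by 8.57 on the fitted log2 scale (adjusted p = 0.036 by edgeR). The size depends on the prior count, since F2 WT worms had no count. The adjusted p ranged from 0.0042 to 0.67 over the alternatives.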

How the results depend on the processing

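The F2 count of 999 genes called kept within 1.5 times under DESeq2 size factors, the DESeq2 Wald test, all 32 libraries, no filter and a minimum of 5 CPM in 2 libraries. The DESeq2 Wald test called 369 lower. The 16 hypoxia libraries alone called 3195 genes, 1992 higher and 1203 lower, and the 4 compared libraries alone 3259, 2001 higher and 1258 lower; these fits use fewer libraries and test fewer genes, and the cause was not tested. Without single libraries the count ranged from 205 to 706, with 133 to 618 higher and 57 to 88 lower, where a lone sample is assumed to vary like the other groups. The test of F2 against P0 called 4 genes by the DESeq2 Wald test, 153 in the hypoxia libraries alone, 276 in the compared groups alone and 0 to 1 without single libraries. The test against F1 called 2 by the DESeq2 Wald test, 0 with no filter, 0 with a filter of 5 CPM, 338 in the hypoxia libraries alone, 843 in the compared groups alone, 0 with a replicate block and 0 to 0 without single libraries. The test against F3 called 1 by the DESeq2 Wald test, 6 in the hypoxia libraries alone and 4 in the compared groups alone. Of the 999 genes, 991 were called in the same direction in the hypoxia libraries alone, 944 in the compared groups alone and 982 by the DESeq2 Wald test.

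The replicate numbers are shared by label only. The differences between replicates of the hrde-1 and WT groups correlated at -0.0471 across genes, and a replicate block gave 942 calls, 730 higher and 212 lower. No named gene changed direction while called. Of the fits of named, called genes without a library, 260 of 532 lost the call. At these depths a gene with no count in a group has an upper limit of 0.147 CPM in hrde-1 worms and 0.138 CPM in WT worms.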
